A study of Mus musculus with 32 samples.

Results

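The comparison set 4 arrays labelled Pparg knockout against 4 arrays labelled Pparg control, all from mice exposed to cold. These 8 arrays were chosen by their titles from the 32 arrays of the series, which fall into 8 groups of 4. Each array carried Cy3-labelled total RNA of 1 mouse sample of the C57Bl/6 strain, and the labels call the material of all 8 preadipocytes. The labels give the treatment as cold exposure but neither its length nor its temperature, and they give no age. They also do not state how the knockout was made, in which cells, or which part of the gene was removed. Among the other arrays, 4 knockout-labelled and 4 control ones of mice kept at room temperature, also labelled in vivo preadipocytes of that strain, were used to ask where the knockout difference itself differed between cold and room temperature. The labels do not say whether replicate samples came from different animals. The p-values therefore reflect only the variation among these samples, possibly technical.

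PPARG is a nuclear receptor that pairs with RXR and switches on the genes that make a fat cell a fat cell: lipid droplet coats, fatty acid uptake and triglyceride synthesis. Brown fat burns that lipid for heat through the mitochondrial protein UCP1, and cold drives it by noradrenaline and cyclic AMP. Glycerol kinase, named in the study's title and written Gk in the gene table, turns glycerol released from fat back into glycerol phosphate for new triglyceride.

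The 75th percentile of the spot intensities was 277 to 359 on the 8 arrays, and 51.9% to 57.9% of the probes were well above background. A level is given below as log2 of the intensity minus that percentile, so 0 is the 75th percentile of the array and each step of 1 is a doubling. A difference is the mean level of the knockout-labelled arrays minus that of the control arrays. The number of arrays limits the precision. Arrays 1 and 2 of both groups lay on one slide and arrays 3 and 4 of both on another, scanned on the same day. In these bulk samples, fewer cells of a type and less RNA per cell cannot be told apart. The labelled cell type was set against its markers. All 15 preadipocyte and fibroblast markers were well above background on every array, but so were 19 or 20 of the 20 brown adipocyte markers, Ucp1 among them, so that markers of mature brown adipocytes were present beside those of the labelled cells.

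The targeted gene did not follow its label. The 1 Pparg probe read 7.97, 7.93, 8.06 and 7.90 on the knockout-labelled arrays, against 5.99, 6.41, 5.28 and 5.67 on the control arrays. All 4 knockout-labelled arrays were above all 4 control arrays (log2 difference 2.13, SE 0.22, adjusted p = 0.000401 by limma, a linear model across all genes). An exact two-sided permutation test gave p = 0.0286, the smallest that 70 orders of 8 arrays allow. The same probe was higher on the knockout-labelled arrays at room temperature, with 7.5, 7.53, 7.44 and 7.37 on the knockout-labelled arrays, against 5.53, 5.26, 5.47 and 5.29 on the control arrays. The labels do not say whether the probe lies within the deleted part, so it checks nothing about the knockout, and the groups are called here by their labels.

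Ucp1, the protein that makes heat in brown fat mitochondria, fell about 2-fold. Its level was 8.59, 8.58, 7.96 and 7.34 on the knockout-labelled arrays, against 9.20, 9.0, 9.12 and 9.20 on the control arrays. The control arrays lay close together and the knockout-labelled arrays lay below all of them, with arrays 3 and 4 the lowest (log2 difference −1.01, SE 0.27, adjusted p = 0.0199, exact two-sided permutation p = 0.0286). Ucp1 did not pass without knockout-labelled array 3 (−0.96, adjusted p = 0.0527), without the 3 muscle-rich arrays described below (−0.78, adjusted p = 0.0765) or on the first slide alone (−0.51, adjusted p = 0.112). On the second slide the difference was −1.51. At room temperature the difference was −1.02, and the difference between the 2 temperatures was 0.00 (adjusted p = 0.994).

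Gk followed the slide more than the group. Its level was 0.89, 0.78, −1.03 and −1.13 on the knockout-labelled arrays, against 2.02, 1.56, −0.18 and 0.03 on the control arrays. The groups overlapped and the difference did not pass (log2 difference −0.98, SE 0.65, adjusted p = 0.279, exact two-sided permutation p = 0.257). On each slide, however, both knockout-labelled arrays lay below both control arrays, with mean differences of −0.96 on the first slide and −1.01 on the second. With the slide in the model the adjusted p was 0.00102, and with the muscle score added to it the difference was −1.0 (adjusted p = 0.00324). Leaving out the 3 muscle-rich arrays, which takes both control arrays of the first slide away, gave a difference of 0.28 (adjusted p = 0.770).

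**Figure D1:**
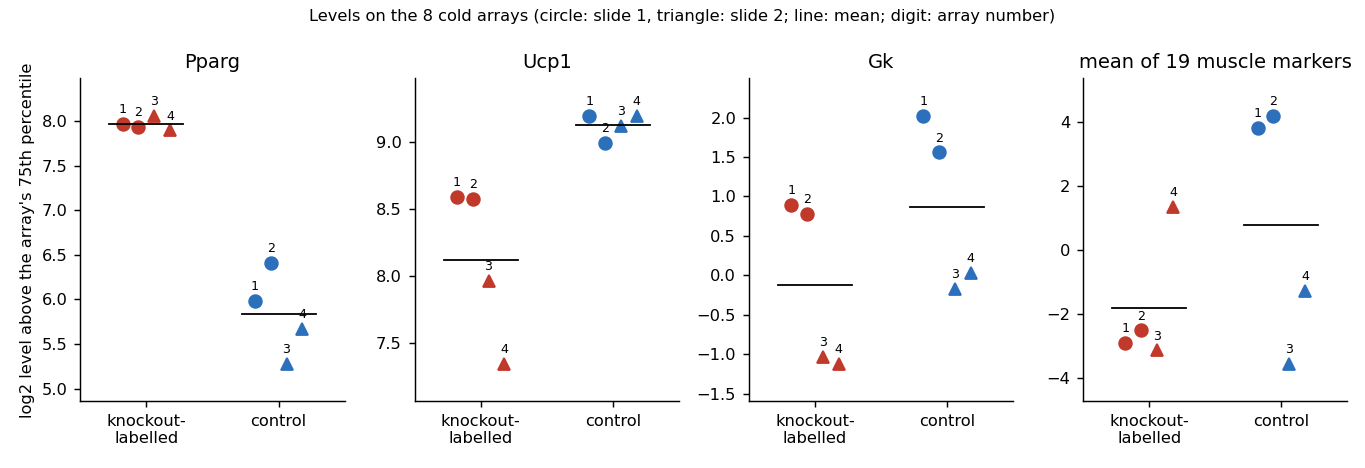
Levels of Pparg, Ucp1 and Gk and the mean of 19 skeletal muscle markers on each cold array, in log2 units above the 75th percentile of the array, with knockout-labelled arrays on the left and control arrays on the right. Circles are the first slide, triangles the second, lines are means and digits are array numbers. Pparg is higher and Ucp1 lower on all 4 knockout-labelled arrays, Gk splits by slide, and the muscle markers are highest on control arrays 1 and 2 and knockout-labelled array 4.

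Skeletal muscle RNA was present in unequal amounts. The mean of the 19 muscle markers that could be tested was −2.92, −2.53, −3.15 and 1.35 on the knockout-labelled arrays, against 3.81, 4.18, −3.58 and −1.30 on the control arrays. Control arrays 1 and 2 and knockout-labelled array 4 were thus the 3 highest, and neither group was uniform. Acta1, skeletal actin, read −3.48, −0.64, −3.55 and 2.59 on the knockout-labelled arrays, against 5.85, 6.13, −5.19 and −0.04 on the control arrays. Myh4, a fast myosin heavy chain, read −6.85, −6.47, −6.67 and 3.21 on the knockout-labelled arrays, against 5.30, 5.56, −6.52 and −1.0 on the control arrays, so that its values split by array and not by group. Between 9 and 23 of the 25 markers were well above background on knockout-labelled arrays and between 9 and 24 on control arrays. The probe used for Ttn, which encodes a giant muscle protein, was not well above background on any of the 8, whereas its 3 other probes were on 2 or 3 of them. Without Mb, the linear levels of the markers, in units of the 75th percentile, summed to 16.5 to 85.7 on knockout-labelled arrays and 23.6 to 621 on control arrays. Across the list the median log2 difference was −3.15, but 17 of the 19 members did not pass, and most ranged widely within each group.

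Mb and Myl1 were the 2 muscle list members that passed. Mb, the oxygen-binding protein myoglobin, rose, with levels of 7.02, 7.54, 6.77 and 7.01 on the knockout-labelled arrays, against 3.25, 3.54, −0.58 and −1.03 on the control arrays (log2 difference 5.79, SE 1.01, adjusted p = 0.00392). The groups did not overlap, and without the 3 muscle-rich arrays the difference was 7.91. Among the control arrays Mb was higher on the 2 muscle-rich ones, whereas knockout-labelled array 4 was no higher than the other 3. Myl1, a myosin light chain, fell, with levels of 3.03, 2.95, 2.88 and 3.32 on the knockout-labelled arrays, against 5.01, 5.24, 4.08 and 4.34 on the control arrays (log2 difference −1.62, SE 0.26, adjusted p = 0.00258).

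**Figure D2:**
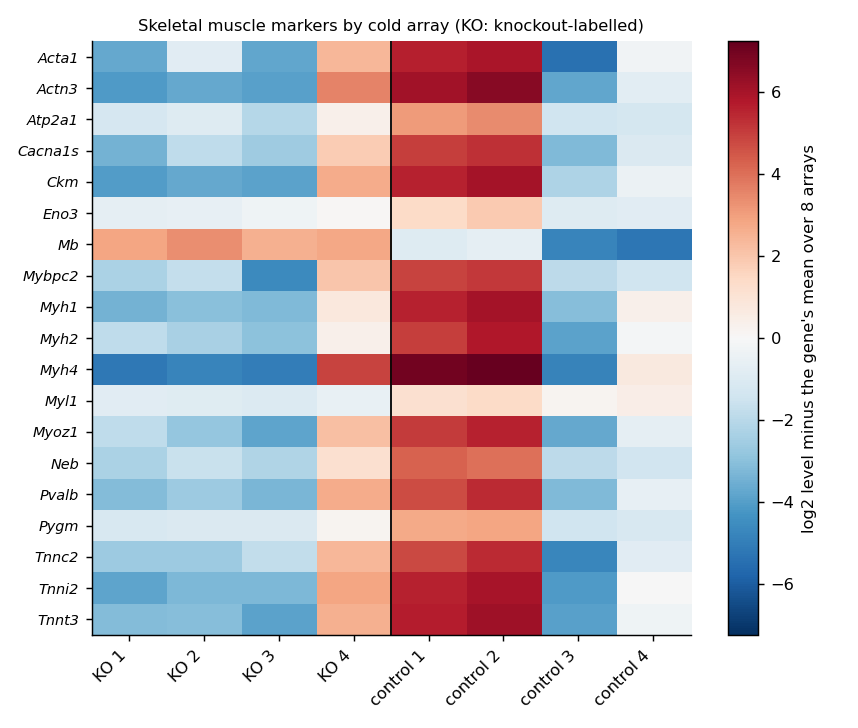
Levels of the 19 testable skeletal muscle markers on each cold array, as log2 level minus the gene's mean over the 8 arrays, with red above and blue below that mean and knockout-labelled arrays (KO) left of control arrays. Control arrays 1 and 2 and, to a lesser degree, KO array 4 are red for most rows. Mb and Myl1 follow the label, with Mb above and Myl1 below the mean on all 4 KO arrays.

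The rest of the transcriptome differed broadly between the labels. Of 12983 genes tested, 4155 (32.0%) passed an adjusted p of 0.05, where 1775 (13.7%) rose and 2380 (18.3%) fell. The change was at least 2-fold in 1313 of them, and the arrays of the groups did not overlap in 4454 genes (34.3%). The median log2 difference over all tested genes was −0.05. With the muscle score, which is the mean of the muscle markers on an array, as a covariate 3745 genes (28.8%) passed, 3391 of them in common, and all 4155 kept their direction. Without control arrays 1 and 2 and knockout-labelled array 4, which leaves 3 arrays against 2, 2009 genes (15.5%) passed, 862 (6.64%) higher and 1147 (8.83%) lower. Of these 1755 were in common, and again all 4155 kept their direction. The 4155 genes were picked on the same arrays, so their kept direction in both fits was largely fixed beforehand and is no separate support. Just 1 of the 4155 genes had a slope on the muscle score that passed, of 39 such genes in all. A gene that follows the score spreads widely within both groups and so seldom passes the group test. That count therefore does not measure the part of muscle in the 4155 calls. Counts below that leave out these 3 muscle-rich arrays are set against those shares of all genes. The control arrays left, 3 and 4, both lay on the second slide, whereas knockout-labelled arrays 1 and 2 lay on the first. Muscle and slide therefore cannot be told apart in that fit.

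Some of the largest fitted rises were in genes with few or no control arrays well above background. Sult1e1, estrogen sulfotransferase, which inactivates estrogens by adding sulfate, read 5.87, 5.93, 4.92 and 6.44 on the knockout-labelled arrays, against −5.34, −5.81, −5.11 and −4.20 on the control arrays. It rose (log2 difference 10.90, SE 0.39, adjusted p = 1.29e-06), but only 1 of the 4 control arrays was well above background, so the size of the difference rests on background signal on the other 3. Clic6, an intracellular chloride channel protein, read −0.79, 0.52, 0.26 and 0.78 on the knockout-labelled arrays, against −6.81, −6.84, −6.59 and −6.95 on the control arrays. None of its control arrays was well above background, so it was at least 30.3-fold higher (adjusted p = 5.37e-06). Other rises with no control array well above background were Lrrc75b, at least 13.2-fold, and S100g, a calcium-binding protein, at least 12-fold.

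Several large rises were measured on both sides. Cyp2f2, a cytochrome P450, read 4.0, 3.98, 3.72 and 3.82 on the knockout-labelled arrays, against −1.93, −2.45, −3.56 and −3.20 on the control arrays (log2 difference 6.66, SE 0.32, adjusted p = 9.23e-06). Clu, the secreted chaperone clusterin, was already present on control arrays and read 7.44, 7.99, 7.69 and 7.45 on the knockout-labelled arrays, against 1.46, 1.83, 1.48 and 1.72 on the control arrays (log2 difference 6.02, SE 0.16, adjusted p = 6.18e-07). Nrip2, a nuclear receptor interacting protein, read 3.02, 3.1, 3.81 and 3.42 on the knockout-labelled arrays, against −3.19, −2.92, −2.44 and −2.77 on the control arrays (log2 difference 6.17, SE 0.22, adjusted p = 1.29e-06). In all 3 genes the arrays of a group lay close together next to the gap between groups. Further rises, in log2 units, were found in the annexin Anxa8 (6.50), the dynein light chain Dynlrb2 (5.35, with 1 control array well above background), the gluconeogenic enzyme Fbp1 (4.98), the potassium channel Kcnc4 (4.72, with 2 control arrays well above background) and the cytochrome P450 Cyp1b1 (4.56).

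The largest falls included genes of brown adipocytes. Elovl3, a fatty acid elongase that cold is known to induce in brown fat, read −2.17, −4.06, −6.62 and −6.62 on the knockout-labelled arrays, against 1.81, −0.35, −0.69 and 1.29 on the control arrays (log2 difference −5.38, SE 1.03, adjusted p = 0.00558). The groups did not overlap, but 2 of 4 knockout-labelled arrays were not well above background, and without the 3 muscle-rich arrays the adjusted p was 0.0615. Otop1, a proton channel abundant in brown fat, read 1.37, 1.32, 1.19 and 1.5 on the knockout-labelled arrays, against 5.64, 4.89, 5.34 and 5.77 on the control arrays (log2 difference −4.07, SE 0.19, adjusted p = 9.23e-06). Clstn3, which encodes calsyntenin and in adipocytes a shorter lipid droplet protein, read 3.89, 3.6, 3.72 and 3.88 on the knockout-labelled arrays, against 7.53, 7.45, 7.49 and 7.76 on the control arrays (log2 difference −3.79, SE 0.13, adjusted p = 1.29e-06). Otop1 and Clstn3 were tight within groups, and without the 3 muscle-rich arrays their differences were −4.27 and −3.89.

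The other large falls were of mixed function. They were the cell adhesion gene Flrt1 (−3.77), Vat1l (−3.72), the phosphodiesterase-binding protein gene Pde4dip (−3.49), the exonuclease gene Pnldc1 (−3.47), the carbonic anhydrase gene Car12 (−3.36) and the urate transporter gene Slc22a12 (−3.79, with 2 knockout-labelled arrays well above background and adjusted p = 0.0874 without the 3 muscle-rich arrays). Another Pde4dip probe, of a different transcript and well above background on all 8 arrays, differed by only −0.75. Esrp2, a splicing regulator, and Tlcd4 were not well above background on any knockout-labelled array. They were at least 5.80-fold and 4.79-fold lower, although neither passed with normexp background correction. Ankrd2, an ankyrin repeat gene known from skeletal muscle, read −5.77, −5.27, −6.94 and −6.11 on the knockout-labelled arrays, against 0.78, −0.33, −4.41 and −3.77 on the control arrays. No knockout-labelled array was well above background, and it was at least 6.77-fold lower (adjusted p = 0.0211). Its 2 highest arrays were the muscle-rich control arrays, and without the 3 muscle-rich arrays the difference was −1.90 with adjusted p = 0.0536.

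**Figure D3:**
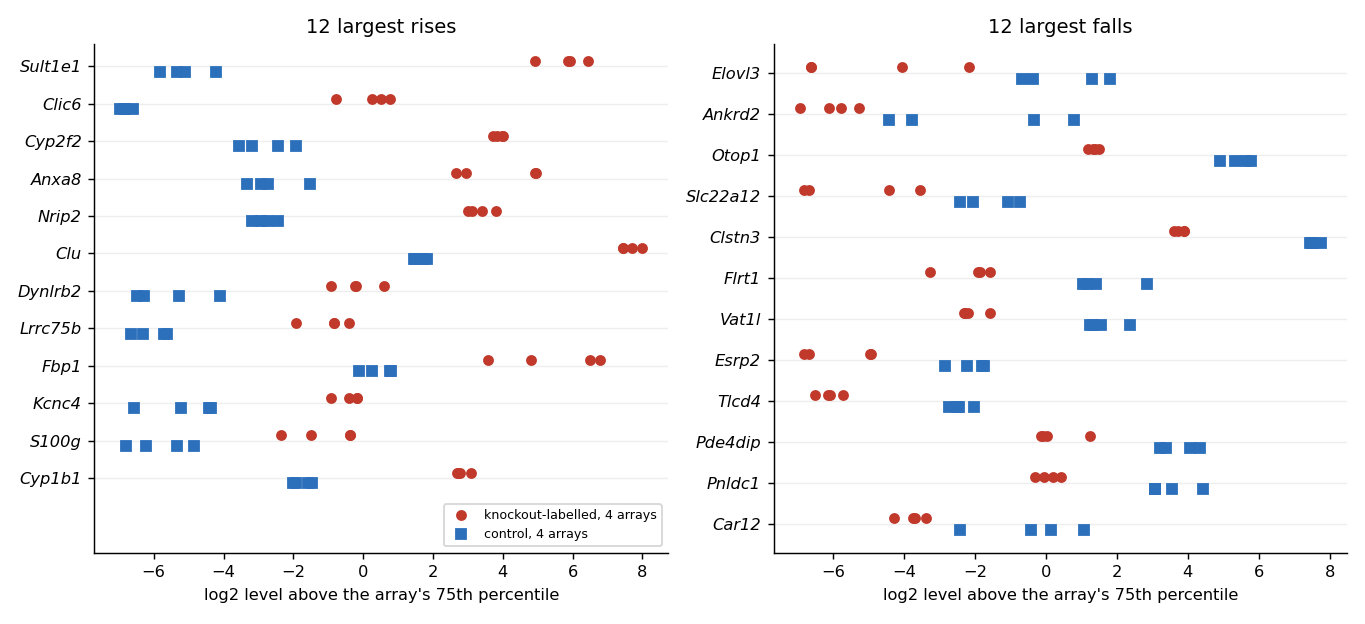
Levels of the 12 genes with the largest fitted rise (left) and the 12 with the largest fitted fall (right) on each of the 8 cold arrays, in log2 units above the 75th percentile of the array. Red circles are the 4 knockout-labelled arrays and blue squares the 4 control arrays. The control values of Sult1e1 and Clic6 include arrays not well above background, and Elovl3 and Ankrd2 spread widely within a group.

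Among PPARG's partners and the other transcription factors of fat cells, 1 of 16 tested genes rose, which was Pparg itself, and 4 fell, with a median of −0.12. Of all genes 13.7% rose and 18.3% fell, with a median of −0.05, so these counts were near the shares of all genes. Ppara, the related receptor for fatty acid oxidation genes, read 4.13, 3.52, 3.51 and 3.17 on the knockout-labelled arrays, against 6.17, 5.56, 5.72 and 5.55 on the control arrays (log2 difference −2.17, SE 0.23, adjusted p = 0.000401). Cebpa, a factor that with PPARG maintains the adipocyte state, read 2.88, 2.94, 3.34 and 3.35 on the knockout-labelled arrays, against 4.27, 4.48, 5.27 and 4.92 on the control arrays (log2 difference −1.61, SE 0.23, adjusted p = 0.00172). Both fell with no overlap. The oxysterol receptor gene Nr1h3 (−1.19) and the mitochondrial regulator gene Esrra (−0.70) fell less. Leaving out the 3 muscle-rich arrays, 1 rose and 2 fell, and Nr1h3 and Esrra did not pass.

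The thermogenic and brown adipocyte genes moved mostly down. Of 20 tested, 11 fell and 3 rose, with a median of −0.96. Without the 3 muscle-rich arrays 5 fell and 1 rose, and Ucp1, Elovl3, Fabp3 and Zic1 did not pass. Beside Elovl3, Otop1 and Ucp1, the fatty acid carrier gene Fabp3 fell, with levels of 6.13, 6.12, 4.28 and 4.26 on the knockout-labelled arrays, against 8.96, 8.03, 7.48 and 7.55 on the control arrays (log2 difference −2.80, SE 0.53, adjusted p = 0.00545). The thioesterase gene Acot11 fell as well (−1.81), although its groups overlapped. Zic1, a transcription factor that marks classical brown fat, rose (log2 difference 1.5, SE 0.27, adjusted p = 0.00444).

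Genes of the lipid droplet fell in 8 of 15 cases and rose in 1, with a median of −0.73. The droplet fusion protein gene Cidec read 4.51, 4.53, 3.73 and 4.33 on the knockout-labelled arrays, against 6.53, 6.90, 6.35 and 6.28 on the control arrays (log2 difference −2.24, SE 0.21, adjusted p = 0.000290). Falls were also found in the glycerol channel gene Aqp7 (−1.82), the droplet coat genes Plin5 (−1.52) and Plin1 (−1.35) and the brown fat droplet gene Cidea (−1.23). In the fit without the muscle-rich arrays 4 fell, Cidec (−2.06), Aqp7 (−1.81) and Cidea (−1.03) among them, but not Plin1 or Plin5.

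Fatty acid uptake and activation changed in both directions, with 6 of 13 genes lower and 2 higher. Acsl5 (−2.12) and Acsl1 (−0.91), which attach coenzyme A to fatty acids, fell, as did the apolipoprotein gene Apoc1 (−1.24). Lpl, the lipase that frees fatty acids from blood lipoproteins, rose (log2 difference 0.86, SE 0.23, adjusted p = 0.0220). Its levels were 8.70, 8.5, 8.22 and 8.06 on the knockout-labelled arrays, against 7.75, 7.96, 7.31 and 7.01 on the control arrays, with no overlap, but it did not pass without knockout-labelled array 2 or control array 3. Without the 3 muscle-rich arrays 2 genes of the list fell and 1 rose, and Acsl1 did not pass (adjusted p = 0.114).

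In triglyceride synthesis 7 of 16 genes fell and 2 rose. Pck1, which supplies glycerol phosphate by glyceroneogenesis and is a known PPARG target, read 6.21, 5.05, 4.64 and 5.23 on the knockout-labelled arrays, against 8.25, 8.52, 7.90 and 7.76 on the control arrays (log2 difference −2.83, SE 0.32, adjusted p = 0.000615). Agpat2, the acyltransferase that makes phosphatidic acid, read 4.77, 5.02, 3.59 and 4.67 on the knockout-labelled arrays, against 7.54, 6.53, 7.17 and 7.63 on the control arrays (log2 difference −2.71, SE 0.34, adjusted p = 0.00105). Both fell by a similar amount with no overlap. Dgat1 (−1.54), which adds the last acyl chain, and the glycerol phosphate dehydrogenase gene Gpd2 (−1.53) fell too, whereas the monoacylglycerol acyltransferase gene Mogat2 rose (log2 difference 2.74, SE 0.27, adjusted p = 0.000331). With the 3 muscle-rich arrays left out, 6 fell and 2 rose.

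Lipolysis genes fell in 11 of 16 cases and rose in none, with a median of −0.99. Lipe, hormone-sensitive lipase, read 1.98, 1.82, 1.15 and 2.10 on the knockout-labelled arrays, against 3.94, 3.79, 4.17 and 4.10 on the control arrays (log2 difference −2.24, SE 0.21, adjusted p = 0.000270). The lipid droplet protein gene Pnpla3 (−1.55), the adenosine receptor gene Adora1 (−1.36) and the beta-adrenergic receptor gene Adrb3 (−1.34) fell as well. The Adrb3 groups overlapped, and it did not pass when any 1 array other than control array 2 was left out. Of the 16 genes, 8 fell without the 3 muscle-rich arrays.

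Among adrenergic and cyclic AMP signalling genes 4 of 21 fell and 3 rose, a share near that of all genes in both directions. With the slide as a block, where 41.4% of all genes passed, 18.4% higher and 23.0% lower, 6 of the 21 fell and 5 rose. The protein kinase A subunit gene Prkar2b (−1.16) and Gnas (−0.99), which encodes the stimulatory G protein, fell alongside Adrb3. Rgs2, a brake on G protein signals, rose (log2 difference 2.48, SE 0.48, adjusted p = 0.00589), and the orphan receptor gene Nr4a3 rose (log2 difference 3.04, SE 0.85, adjusted p = 0.0253), with 2 control arrays well above background. Of the immediate-early genes 2 of 12 rose, Myc (2.18) and Jun (1.40). The median of that list was 1.48, but −0.20 without the 3 muscle-rich arrays, where none passed and 2 had an unadjusted p under 0.05. With the slide as a block 6 of the 12 rose.

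Transcripts of mitochondrial fuel use were lower across several lists. Of the fatty acid oxidation genes 17 of 21 fell and 1 rose, with a median of −0.94. Acads, the short-chain dehydrogenase, read 3.45, 3.56, 3.01 and 3.11 on the knockout-labelled arrays, against 4.49, 4.69, 4.71 and 4.82 on the control arrays (log2 difference −1.40, SE 0.15, adjusted p = 0.000527). The acylcarnitine carrier gene Slc25a20 (−1.77), the trifunctional protein gene Hadha (−1.58) and the thioesterase gene Acot2 (−2.22) also fell. Cpt1a, the liver-type carnitine transferase, was the 1 that rose (log2 difference 1.48, SE 0.32, adjusted p = 0.00872).

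The TCA cycle genes fell in 16 of 22 cases, with a median of −0.63 and differences between −1.35 and −0.14. Cs, citrate synthase, read 8.32, 8.02, 8.05 and 7.95 on the knockout-labelled arrays, against 9.22, 8.97, 9.11 and 9.16 on the control arrays (log2 difference −1.03, SE 0.12, adjusted p = 0.000849). The succinyl-CoA ligase genes Sucla2 (−1.35) and Suclg1 (−1.25) fell slightly more. Of 21 nuclear respiratory chain genes 11 fell, by at most the −1.22 of cytochrome c, Cycs. Genes of the peroxisome list fell in 15 of 20 cases (median −0.88). Among them were the oxidation enzyme gene Ehhadh (−1.83), the import receptor gene Pex5 (−1.32) and the thioesterase gene Acot4 (−2.22). The list as drawn up also held Fndc5 (−2.23), which encodes the precursor of irisin. When the 3 muscle-rich arrays were left out, 9 of the fatty acid oxidation genes, 13 of the TCA cycle genes, 4 of the respiratory chain genes and 9 of the peroxisome genes fell, and Hadha, Ehhadh and Acot4 did not pass.

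In branched-chain amino acid breakdown 8 of 16 genes fell, among them Bckdhb of the branched-chain dehydrogenase (−1.09). Mccc1, a leucine breakdown enzyme subunit, rose (0.77), whereas the gene of that enzyme's other subunit fell (−0.64). Without the 3 muscle-rich arrays 2 fell and none rose, and Mccc1 did not pass (adjusted p = 0.0797). Of 19 genes of glucose uptake and glycolysis 3 fell, a share near the 18.3% of all genes. They were led by the liver-type glycogen synthase gene Gys2 (−1.90) and the lactate dehydrogenase gene Ldha (−1.06). With the slide as a block 5 of the 19 fell, against 23.0% of all genes. Of 17 stress response genes 4 fell, also near the share of all genes, among them the asparagine synthetase gene Asns (−0.99).

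Most cholesterol genes fell in the cold. Of 19 tested genes of cholesterol synthesis and its control 13 fell and none rose, with a median of −1.08, against −0.05 for all genes. In the fit without the muscle-rich arrays 13 fell as well and the median was −1.46. Lss, the cyclase that forms the sterol ring system, read −0.48, −0.88, −1.69 and −0.41 on the knockout-labelled arrays, against 0.79, 0.27, 1.15 and 1.47 on the control arrays (log2 difference −1.79, SE 0.34, adjusted p = 0.00527). Insig1, which holds back the sterol-sensing factor SREBP, read 1.01, 0.55, 1.32 and 1.43 on the knockout-labelled arrays, against 2.25, 1.83, 3.21 and 3.52 on the control arrays (log2 difference −1.62, SE 0.38, adjusted p = 0.0124). Every knockout-labelled array was below every control array in both genes. Fdps (−1.38), Sqle (−1.39) and Pmvk (−1.56), enzymes of the pathway, fell by similar amounts, although the Sqle groups overlapped on control array 2 and it did not pass when any other single array was left out.

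At room temperature these genes ran the other way. There 9 of 20 rose, against 19.6% of all 13233 genes, and none fell, against 25.0%, with a median of 0.40. The difference between the 2 temperatures was itself tested and passed in 14 of 20 genes, against 13.4% of all 14068 genes. For Sqle it was −2.23, SE 0.50, adjusted p = 0.0116. Sqle fell in the cold (−1.39) and rose at room temperature (0.84). For Fdps the difference was −1.38 in the cold and 0.14 at room temperature, where it did not pass. The temperatures were run on different slides and scan days, so temperature and these cannot be told apart. The room temperature knockout-labelled arrays were also brighter, with 75th percentiles of 499 to 604, against 293 to 406 on the control arrays there, and the part of brightness in the result was not tested.

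Fatty acid synthesis genes were lower in the cold as well. Of 16 genes 6 fell and none rose, with a median of −0.80, and 13 fell without the 3 muscle-rich arrays (median −1.12). Fasn, fatty acid synthase, read 4.73, 4.60, 4.33 and 4.89 on the knockout-labelled arrays, against 6.63, 5.73, 6.82 and 7.13 on the control arrays (log2 difference −1.94, SE 0.28, adjusted p = 0.00178), with no overlap. Scd1 (−1.97), the desaturase that makes oleate, and Acss2 (−1.39), which activates acetate, fell too. At room temperature 1 of the 16 rose, against 19.6% of all genes, none fell, against 25.0%, and the median was 0.27. The difference between temperatures passed in 4 of 16 genes, against 13.4% of all 14068 genes. Among the 4 was Fasn (−1.97, SE 0.47, adjusted p = 0.0158).

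**Figure D4:**
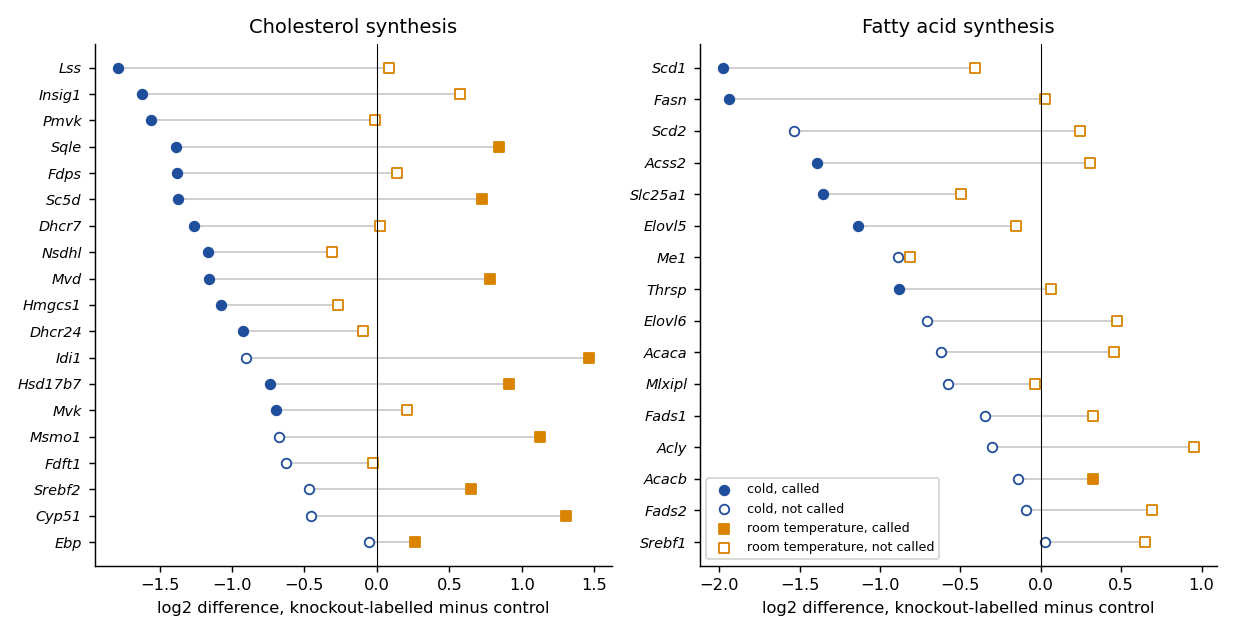
Log2 difference, knockout-labelled minus control, for each gene of the cholesterol synthesis list (left) and fatty acid synthesis (right), in the cold (blue circles) and at room temperature (orange squares), with filled symbols for adjusted p under 0.05. For the cholesterol genes the cold values lie below 0, between −1.79 and −0.05, and most room temperature values lie above.

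The promoters of the cholesterol genes are shown because these genes moved together and are textbook targets of SREBP and of the factor NF-Y, which binds CCAAT. Of the 20 genes, 15 had a promoter in the RefSeq table of GRCm38.p6, which holds sequence around the start of a gene, mostly before it. CCAAT on either strand was found in 14 of the 15 (93.3%), against 37.9% of all 27025 promoters of the same length and 37.5% of 88 promoters of the lipid, thermogenic, oxidation and peroxisome lists. Stretches of 60 bases that hold the motif, 5′ to 3′ on the strand of the gene with CCAAT or its reverse complement in capitals, are given for the named genes with an entry.
Lss, chr10:76531538-76531597, plus strand: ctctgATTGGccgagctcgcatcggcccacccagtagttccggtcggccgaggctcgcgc
Insig1, chr5:28071191-28071250, plus strand: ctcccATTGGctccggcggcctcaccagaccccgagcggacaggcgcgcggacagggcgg
Pmvk, chr3:89454400-89454459, plus strand: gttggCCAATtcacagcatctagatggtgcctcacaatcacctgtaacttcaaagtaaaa
The sterol element TCACNCCA, searched on both strands, was in 3 of the 15, against 4.28% of all promoters. The PPAR element, a direct repeat of AGGTCA spaced by 1 base of any kind and searched on both strands, was in 0 of those 88 promoters and in 12 (0.0444%) of all 27025. Its absence says only that these letters are not within that window.

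Of 10 tested genes of creatine and calcium cycling 3 rose and 7 did not pass. The median was 0.15 and the lowest difference −3.77. With the muscle score as a covariate 2 rose and 1 fell. Gamt, which makes creatine, read 4.18, 4.63, 4.01 and 4.30 on the knockout-labelled arrays, against 1.32, 0.81, 0.86 and 1.36 on the control arrays (log2 difference 3.19, SE 0.19, adjusted p = 3.23e-05), and Ckb, brain-type creatine kinase, rose (log2 difference 2.78, SE 0.57, adjusted p = 0.00735). Gatm rose less (0.83), with 1 control array well above background, and did not pass without the 3 muscle-rich arrays.

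Secreted factors of fat changed in both directions, with 3 of 17 higher and 2 lower, a share near that of all genes. With the slide as a block 4 were higher and 4 lower. Adipoq, which encodes adiponectin, read 5.53, 5.66, 5.71 and 6.84 on the knockout-labelled arrays, against 7.71, 8.23, 8.05 and 7.72 on the control arrays (log2 difference −1.99, SE 0.29, adjusted p = 0.00172). Knockout-labelled array 4 stood above the other 3 but below every control array. Rbp4, a retinol carrier, fell as well (−1.38), with overlapping groups, while Metrnl (0.79) and the lipase inhibitor gene Angptl4 (0.66) rose. Without the 3 muscle-rich arrays 1 rose and 2 fell, and Angptl4 did not pass (adjusted p = 0.141).

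**Figure D5:**
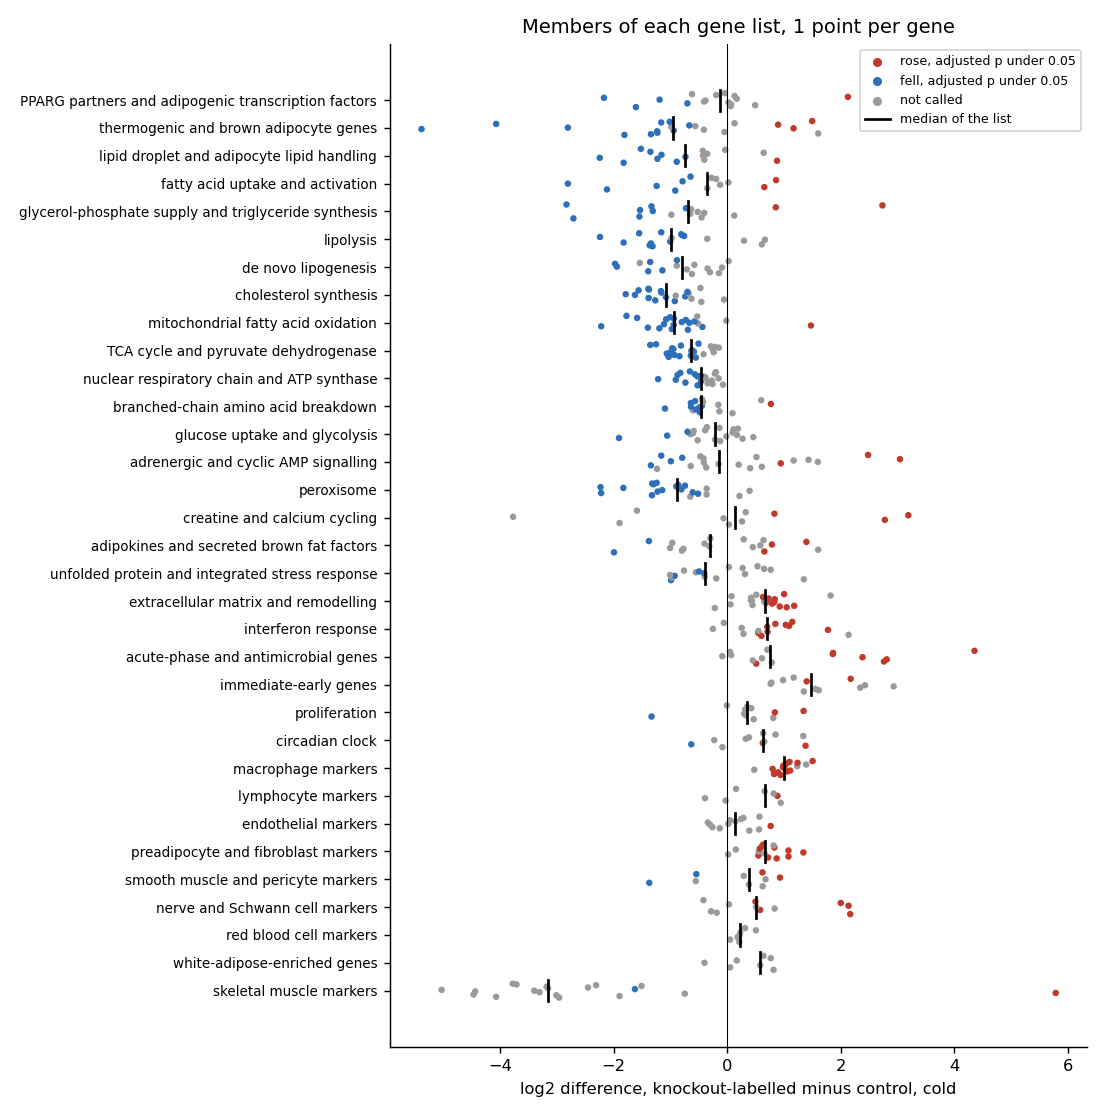
Log2 difference, knockout-labelled minus control in the cold, for every tested member of 33 gene lists, 1 point per gene. Red points rose and blue points fell at adjusted p under 0.05, grey points did not pass, and black bars are list medians. Lists of lipid handling, cholesterol and mitochondria sit left of 0, and macrophage, fibroblast, matrix and acute-phase lists sit right of it.

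Acute-phase genes rose in 7 of 14 cases and fell in none. Saa3, a serum amyloid protein, read −1.46, −1.67, −2.93 and −2.86 on the knockout-labelled arrays, against −6.61, −6.65, −6.41 and −6.68 on the control arrays. It was not well above background on any control array and was at least 5.66-fold higher (adjusted p = 0.000105). Itih4, an acute-phase plasma protein, read 2.40, 2.15, 2.61 and 2.14 on the knockout-labelled arrays, against −0.40, 0.15, −0.60 and −1.09 on the control arrays (log2 difference 2.81, SE 0.25, adjusted p = 0.000207). The copper protein gene Cp (2.76), Lcn2 (2.38), whose product binds bacterial iron carriers, and S100a9 (1.87) of neutrophils rose too. Of the interferon response genes 9 of 15 rose, among them Ifit3 (1.78) and Usp18 (1.15). Of the acute-phase genes 4 and of the interferon genes 1 rose without the 3 muscle-rich arrays.

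Markers of other cell types moved with the label as well. Macrophage markers rose in 14 of 17 cases and fell in none, with a median of 1.01. Their summed linear levels were 41.6 to 69.3 on knockout-labelled arrays, against 25.3 to 31.2 on control arrays, and the ranges did not overlap. Trem2 (1.51), Mpeg1 (1.24) and the mannose receptor gene Mrc1 (1.10) were examples. Leaving out the muscle-rich arrays, 2 rose and the median was 0.79.

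Of 15 markers of preadipocytes and fibroblasts 10 rose and none fell, with summed levels of 172 to 252 on knockout-labelled arrays and 115 to 153 on control arrays. Dpt (1.34), Lum (1.08) and Cd34 (0.87) were among them, and 1 rose without the 3 muscle-rich arrays. The other Cd34 probe, also well above background on all 8 arrays, differed by only 0.18. Extracellular matrix genes rose in 10 of 20 cases, with the collagen genes Col3a1 (log2 difference 1.18, SE 0.19, adjusted p = 0.00259) and Col1a1 (1.05) and the protease inhibitor gene Timp3 (1.0), and 6 rose without those arrays. The part of macrophages and fibroblasts in the acute-phase, interferon and matrix results was not tested.

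Nerve and Schwann cell markers rose in 5 of 11 cases, with summed levels of 87.6 to 99.9 on knockout-labelled arrays and 26.4 to 36.8 on control arrays. Without S100b the sums were 20.3 to 29.5 on knockout-labelled arrays and at most 13.9 on control arrays, so S100b made up most of the level in both groups. S100b, which is also expressed in adipocytes, read 6.14, 6.05, 6.19 and 6.07 on the knockout-labelled arrays, against 4.12, 3.89, 3.92 and 4.52 on the control arrays (log2 difference 2.0, SE 0.15, adjusted p = 0.000106). The myelin genes Pmp22 (2.14) and Mal (2.17) rose about as much. Without the 3 muscle-rich arrays 5 of the 11 rose as well.

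Of 13 endothelial markers 1 rose (Esam, 0.77) and of 7 lymphocyte markers 1 rose (Cd79b, 0.89). Of all genes 13.7% rose and 18.3% fell, or 18.4% and 23.0% with the slide as a block. For lists this small, the main counts in this paragraph lay near or below those shares. With the slide as a block 2 of the endothelial markers rose, and 3 of the lymphocyte markers rose and 1 fell. With normexp background correction 4 lymphocyte markers rose, where 1115 of all 12983 genes did. Of 9 smooth muscle and pericyte markers 2 rose, Mylk (0.93) and Tagln (0.62), and 2 fell, led by the pericyte gene Cspg4 (−1.37), and with the slide as a block 4 rose and 3 fell. By limma none of 7 red blood cell markers and none of 7 genes enriched in white fat passed, nor did any of them reach an unadjusted p of 0.05. Of 11 proliferation genes Mki67 (1.35) and Mcm5 (0.84) rose, and Ccnb1 fell (−1.33), with 1 knockout-labelled array well above background and a difference of 0.020 with normexp background correction. Of 11 clock genes 2 rose, among them Bhlhe40 (1.38), and Clock fell (−0.63). The count of clock genes that rose was 6 with the muscle score as a covariate, 5 without the 3 muscle-rich arrays and 5 with the slide as a block, and 1 fell in each.

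The knockout difference in the cold was set against that at room temperature, where 5903 of 13233 genes (44.6%) passed. Of the 12403 genes tested at both temperatures, 2170 passed in both with the same sign. These were 53.8% of the 4030 cold calls and 38.4% of the 5656 room temperature calls. Another 129 genes passed in both with opposite signs. The difference between temperatures passed in 1879 of 14068 genes (13.4%), where 860 (6.11%) were more positive and 1019 (7.24%) more negative in the cold. Calls above 0 were 45.8% of these, but 24.8% with each array scaled to its median, where the median of all genes was −0.17 in place of −0.01, and 32.3% with normexp background correction, which left 610 calls. The 14 cholesterol calls were 15 with median scaling and 10 with normexp.

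The lists were counted in the same way at room temperature. Of the thermogenic and brown adipocyte genes 14 of 20 fell there (median −0.85), as did 14 of 21 fatty acid oxidation genes (−0.41) and 14 of 20 peroxisome genes (−0.91). Of all genes 25.0% fell there. Macrophage markers rose in 14 of 17 cases in the cold, against 2 of 17 at room temperature, and fibroblast markers in 10 of 15 in the cold, against 1 of 15 at room temperature. Of all genes 13.7% rose in the cold and 19.6% at room temperature. The macrophage median was 1.01 in the cold and 0.50 at room temperature, and the fibroblast median 0.66 and −0.10. The difference between temperatures passed in 2 of the 17 macrophage markers and 4 of the 15 fibroblast markers, against 13.4% of all 14068 genes.

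Of the genes that the naming rule gave for a positive difference between temperatures, Glod5, a glyoxalase-domain gene, was at 6.16, SE 0.93, adjusted p = 0.00117, and Mal at 4.42, SE 0.80, adjusted p = 0.00368, both with every array of the 4 groups well above background. The other 3 were Clic6 (7.03, SE 0.61, adjusted p = 1.56e-05), Dynlrb2 (5.43, SE 0.80, adjusted p = 0.00102) and Sult1e1 (5.26, SE 0.53, adjusted p = 8.11e-05). Clic6 was well above background on the 4 knockout-labelled arrays in the cold and on no other, so its value has no exact size. Dynlrb2 was well above background on 1 cold control array, 1 knockout-labelled array at room temperature and no control array there, and Sult1e1 on 1 control array in the cold and 2 at room temperature, so these values lean on background signal too. Sult1e1 rose at both temperatures, by 5.65 at room temperature. Glod5 read 1.70, 0.71, −0.42 and −0.66 on the knockout-labelled arrays, against −1.78, −3.48, −4.15 and −4.16 on the control arrays. It rose by 3.73 in the cold, whereas at room temperature it fell (−2.44). Mal likewise rose in the cold and fell at room temperature (−2.25).

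In the other direction the rule gave Flrt1 (−4.94, SE 0.73, adjusted p = 0.00103), Ptgs1 (−3.36, SE 0.40, adjusted p = 0.000253), Car12 (−3.06, SE 0.82, adjusted p = 0.0253), the glycolytic enzyme gene Aldoc (−2.94, SE 0.34, adjusted p = 0.000234) and Spata25 (−2.83, SE 0.62, adjusted p = 0.0103). Car12 was well above background on no array of either group at room temperature, so its value rests on background signal there. Spata25 was well above background on the 4 cold control arrays, 2 knockout-labelled arrays at room temperature and no other, and its value likewise has no exact size. Spata25 fell in the cold, but its difference there was 0.098 with normexp background correction. Ptgs1, a cyclooxygenase, rose at both temperatures, by 2.70 in the cold and 6.06 at room temperature. Aldoc fell in the cold (−1.30) and rose at room temperature (1.64). For Pparg (0.05, adjusted p = 0.914), Ucp1 (0.00, adjusted p = 0.994), Gk (−0.16, adjusted p = 0.913) and Otop1 (0.03, adjusted p = 0.937) the difference between temperatures did not pass. For Otop1 the knockout difference was −4.07 in the cold and −4.10 at room temperature.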

How the data were processed

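The files are 1-colour Agilent array scans with 44397 spots each, 1377 of them control spots. Per the file headers and the submitters' processing notes, the authors extracted them with Feature Extraction 10.7.3.1, and the deposited processed intensity is background-subtracted. The deposited series table held the same intensities on the 8 cold arrays, with a relative difference of 0. The grid names the genes after an older mouse build, so no probe positions are given, and promoter positions are those of RefSeq on GRCm38.p6.

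Here log2 of the deposited intensity minus log2 of the 75th percentile of the array was taken over spots that are not controls, in R 4.3.3 with limma 3.58.1 and the data.table package (version 1.17.8). Spots flagged as outliers (101 to 155 per array) were left out, so that 6 tested genes lacked a value on some array and were fitted on the rest, and spots of a probe were averaged. No spot was saturated. Of 39429 probes 27234 (69.1%) had a gene name, for 20659 genes. A gene took its probe with the highest mean over the 32 arrays. A gene was tested in the cold if well above background on at least 4 of the 8 cold arrays, in whichever group these lay. The room temperature test used the same limit on its own arrays. For the difference between temperatures the limit was at least 4 of the 16 arrays. The model was fitted to the 8 cold arrays by limma with moderated statistics and Benjamini-Hochberg adjustment over all tested genes. The difference between temperatures was fitted on all 16 arrays of both temperatures. A bound ("at least") sets the mean of the brighter group against the lowest signal well above background on the arrays of the dimmer one. The fits were tested on simulated data.

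Genes are named by rule: the targeted and title genes, the 12 largest rises and falls and the 5 largest differences between temperatures in each direction, among called genes whose cold groups do not overlap, with no predicted names or muscle markers and with at least 0.5 of the change kept beside the muscle score, and up to 5 called genes of each of 33 lists. Members, lists, motifs and the gene rule were chosen with earlier results of these data known, and 1 gene is not reported here. Alternatives covered scaling, background, filters, probes, slide, replicate number, muscle score and leaving out arrays.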

Additional observations from a re-analysis of the deposited data

Results flagged for a closer look

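In 9 of 262 groups of 4 cold arrays, a single array stood apart from the other 3 by Dixon's criterion, where chance gives about 1 in 20. Knockout-labelled array 4 stood apart in 6 of them. It was at 1.35 for the muscle score, 3.21 for Myh4 and 1.83 for Tnnt3, a fast troponin, each above the other knockout-labelled arrays. It was also the highest of its group for Vat1l (−1.57), Pde4dip (1.25) and Adipoq (6.84). On the control arrays, array 2 was at 0.39 for Aldoc and 7.94 for Cycs, and array 1 at 1.54 for Acot2.

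The knockout difference differed between the temperatures for 49 named genes by the test of that difference, 25 with a value above 0 and 24 below it. With the muscle score as a covariate 42 passed with the same sign. The values below are the log2 difference in the cold minus that at room temperature. Above 0, Glod5 was at 6.16 and Mal at 4.42. Fitted values of 7.03 for Clic6, 5.43 for Dynlrb2 and 5.26 for Sult1e1 rest on groups with few or no arrays well above background, as do those of Nr4a3, Car12, Spata25 and Tlcd4 below, so their sizes and order are not exact. Other genes with a large rise followed, at 3.80 for Nrip2, 2.71 for Clu and 1.11 for Cyp1b1. Genes of the immediate response were at 3.63 (Nr4a3), 2.20 (Jun) and 1.95 (Myc). Acute-phase genes went both ways, at 3.13 for Itih4, 1.12 for Cp and −1.56 for Lcn2. Stromal, nerve and vascular genes were at 1.09 (Col3a1), 1.12 (Col1a1), 1.26 (Cd34), 1.33 (Esam), 0.79 (Tagln), 1.29 (Pmp22) and 1.55 (S100b). Gamt was at 2.06, Mki67 at 1.91, Gnas at 0.97, Lpl at 0.93 and Bckdhb at 0.72.

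Below 0 lay Flrt1 (−4.94), Ptgs1 (−3.36), Car12 (−3.06), Aldoc (−2.94), Spata25 (−2.83), Vat1l (−2.28) and Tlcd4 (−1.45). All 5 named cholesterol genes were among them, at −2.23 for Sqle, −2.20 for Insig1, −1.87 for Lss, −1.54 for Pmvk and −1.52 for Fdps. Fatty acid synthesis genes were at −1.97 (Fasn), −1.69 (Acss2) and −1.56 (Scd1). Genes of lipid storage and breakdown were at −2.16 (Mogat2), −1.91 (Pnpla3), −1.25 (Lipe) and −1.11 (Cebpa, their regulator). Hadha was at −1.42, Mccc1 at −1.06, Acads at −0.92 and Clock at −0.77.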

How the results depend on the processing

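Of 123 named called genes under 23 alternatives (2813 values), 67 kept sign and call in all, 165 values kept the sign without the call, and 2 turned, Spata25 (0.098) and Ccnb1 (0.020), both with normexp background correction. With 1 array left out, calls were lost in Acot11, Acss2, Adrb3, Angptl4, Ankrd2, Cd34, Gatm, Jun, Lpl, Nr4a3, Rbp4, Sqle and Tagln, for Acss2 without control array 3 and for Ankrd2 without knockout-labelled array 3 or 4. The 4155 cold calls became 1172 on the first slide alone, 2009 without the 3 muscle-rich arrays (an alternative chosen after seeing the data) and 2884 to 4189 with 1 array left out. Ucp1 was −0.51 on the first slide alone and −0.78 without the muscle-rich arrays, neither passing, and −1.17 to −0.75 with 1 array left out, where it did not pass without knockout-labelled array 3 (−0.96, adjusted p = 0.0527). Gk passed at −0.98 with the slide as a block, −1.01 on the second slide alone and −0.999 with slide and muscle score (also chosen after seeing the data), but was 0.28 without the muscle-rich arrays and −1.33 to −0.59 with 1 array left out. Same-numbered arrays had residual correlations of 0.285, 0.0931, 0.499 and 0.0412, and not every array correlated best with its own number, so the numbers are not taken as pairs. The replicate block gave 4720 cold calls and Gk −0.98 (adjusted p = 0.00330). The 1879 differences between temperatures became 610 with normexp and 1240 to 2199 with 1 array left out, lowest without knockout-labelled array 1 at room temperature. The cause of these shifts was not tested. Pparg kept its sign and call throughout. List medians kept their sign under quantile, median and normexp settings except for 2 lists with normexp, adrenergic signalling and secreted factors. Signal over background limits the genes given as bounds.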
